A study of Mus musculus with 10 samples.

Results

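The 39 genes described here encode the machinery and receptors of autophagy. They were taken by name from a list that covers the initiation kinase, the lipid kinase, the conjugation enzymes, the ATG8 proteins, cargo and mitophagy receptors and 2 transcription factors, by a rule that uses no measured value, although the list was proposed with earlier results of these data known. All 39 were found among the 41388 genes of the deposited liver RNA-seq counts, and all 39 were among the 13444 genes that passed the filter on low counts. Liver RNA of 10 C57B/6J mice, labelled as 12 wk old, was sequenced with 1 library per mouse. WT mice carry Nampt fl/fl alleles, in which the gene is flanked by recombination sites but intact, and NAMPT LKO mice are their littermates with Albumin-cre, which deletes Nampt in hepatocytes. The 3 WT Fasting and the 5 NAMPT LKO Fasting mice are labelled as fasted for 24 h, and the 2 WT refed mice as fasted for 22 h and then fed for 2 h. The study's text describes the refed mice as random-fed and gives a shorter fast, so the hours here are those of the labels. By these labels every mouse was fasted, so a rise with fasting and a drop with refeeding cannot be told apart. There is also no fed or refed NAMPT LKO group.

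Macroautophagy is a route by which a cell encloses its own cytoplasm, organelles or protein aggregates in a double membrane and delivers them to the lysosome. The ULK1 kinase complex starts the process, a class III phosphoinositide 3-kinase complex then makes the lipid PI3P on the forming membrane, and WIPI proteins bind that lipid. Conjugation enzymes attach ATG8 proteins (the LC3 and GABARAP families) to the membrane, where receptors such as p62 hold the cargo. In liver, autophagy is a classical response to food deprivation that releases amino acids and lipids, and much of its control is on proteins, by MTORC1 and AMPK, which transcript counts do not measure.

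Total counts per library were 30603080 to 43434139. Nampt, the targeted gene, was at 11.8 to 15.3 CPM in NAMPT LKO Fasting livers and at 63.0 to 141 CPM in WT Fasting livers (CPM are library-scaled counts after TMM normalization, which corrects for library composition). Hepatocyte markers (Alb, Apoa1, Ttr, Tat, Cps1, Hnf4a) summed to 59569 to 106759 CPM in every library. Markers of cholangiocytes (5 genes) summed to 20.1 to 22.4 CPM in WT refed livers, 15.2 to 22.3 CPM in WT Fasting livers and 34.0 to 54.5 CPM in NAMPT LKO Fasting livers. The 3 cell markers that passed the test in NAMPT LKO Fasting vs. WT refed livers were Epcam, Spp1 and Col1a1. Markers of neutrophils, adipocytes and pancreas stayed under 2 CPM in sum. NAMPT LKO mouse 5 stood apart, with 21.1% of its counts on the mitochondrial genome against 7.42% to 12.9% in the other 9 libraries. Counts of called genes are therefore given with and without it, as are values of several genes that it moves. Because the samples are bulk tissue, fewer cells of a type and less RNA per cell cannot be told apart.

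The autophagy genes Ulk1, Gabarapl1 and Map1lc3b were higher in fasted livers, WT and NAMPT LKO, than in the WT refed livers. The 250 bases before the RefSeq transcription start of each (GRCm38.p6) are shown because these are the genes that moved together, and capitals mark the matches to the motifs named after them.
Ulk1, chr5:110810082-110810331, minus strand: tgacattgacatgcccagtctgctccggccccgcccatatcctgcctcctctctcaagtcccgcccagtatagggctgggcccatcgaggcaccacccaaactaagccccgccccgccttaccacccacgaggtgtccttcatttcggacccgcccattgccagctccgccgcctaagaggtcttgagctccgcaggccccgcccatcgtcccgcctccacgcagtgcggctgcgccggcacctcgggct
Gabarapl1, chr6:129532942-129533191, plus strand: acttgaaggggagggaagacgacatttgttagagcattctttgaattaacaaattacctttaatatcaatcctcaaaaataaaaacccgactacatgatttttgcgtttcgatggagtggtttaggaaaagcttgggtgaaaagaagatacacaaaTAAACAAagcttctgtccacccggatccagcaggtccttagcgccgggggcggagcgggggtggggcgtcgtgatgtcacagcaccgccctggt
Map1lc3b, chr8:121590188-121590437, plus strand: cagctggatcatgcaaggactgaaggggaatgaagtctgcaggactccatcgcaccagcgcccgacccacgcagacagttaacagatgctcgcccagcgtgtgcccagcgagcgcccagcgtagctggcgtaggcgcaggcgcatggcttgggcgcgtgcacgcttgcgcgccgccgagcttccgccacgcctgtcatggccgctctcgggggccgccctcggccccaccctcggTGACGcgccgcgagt
The motifs searched, on both strands, were the E-box CACGTG that TFEB and other factors bind, the forkhead sites GTAAACA and TAAACAA that overlap by most of their letters, the cAMP response element TGACGTCA and its half-site TGACG, which lies within it. In the Gabarapl1 sequence TAAACAA starts 94 bases before the start site, a word that 3.76% of the 32851 RefSeq promoters of this length hold. In the Map1lc3b sequence TGACG starts 15 bases before the start site, a word that 17.8% of all promoters hold. This RefSeq start lies 77 bases downstream of the start of the counted Map1lc3b gene, so the match lies inside that gene. The Ulk1 sequence holds none of the 5 motifs. RefSeq gave promoters for 32 of the 39 genes (38 sequences), and CACGTG was in those of Atg3, Atg5, Atg7 and Bnip3, or 10.5% of the 38, against 6.02% of all promoters. The motif GTAAACA, which 3.17% of all promoters hold, and TGACGTCA, which 1.55% hold, were in none of the 38. The half-site TGACG was in 23.7% of the 38. These matches are descriptions of letters in a window, and the motif TAAACAA and the half-site were added after the sequences had been read.

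Measured per exonic length as RPKM (the deposited CPM divided by exonic length in kilobases), the 39 transcripts spanned from 1.69 for Tfeb to 178 for Gabarapl1, as means over the 10 livers. The median was 9.40 RPKM, against 3.51 RPKM for all genes tested. The 5 genes above 50 RPKM were Gabarapl1, the p62 cargo receptor gene Sqstm1 (139 RPKM), Gabarap (107 RPKM), the mitophagy receptor gene Bnip3 (96.2 RPKM) and Map1lc3a (78.1 RPKM). These encode proteins that are attached to the membrane or that hold cargo. The genes of the class III kinase complex lay between 1.86 RPKM for Pik3r4, its regulatory scaffold, and the level of Uvrag, the highest of its 5 genes. Among the 10 conjugation genes the range ran from 2.03 RPKM for Atg10 to 29.4 RPKM for Atg3, the E2-like enzyme that hands ATG8 proteins to lipid. Both transcription factor genes of the list were low, Tfe3 at 3.15 RPKM and Tfeb at 1.69 RPKM. In every library at least 90 reads lay on each of the 39 genes, so low level alone left none of them undetected.

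**Figure D1:**
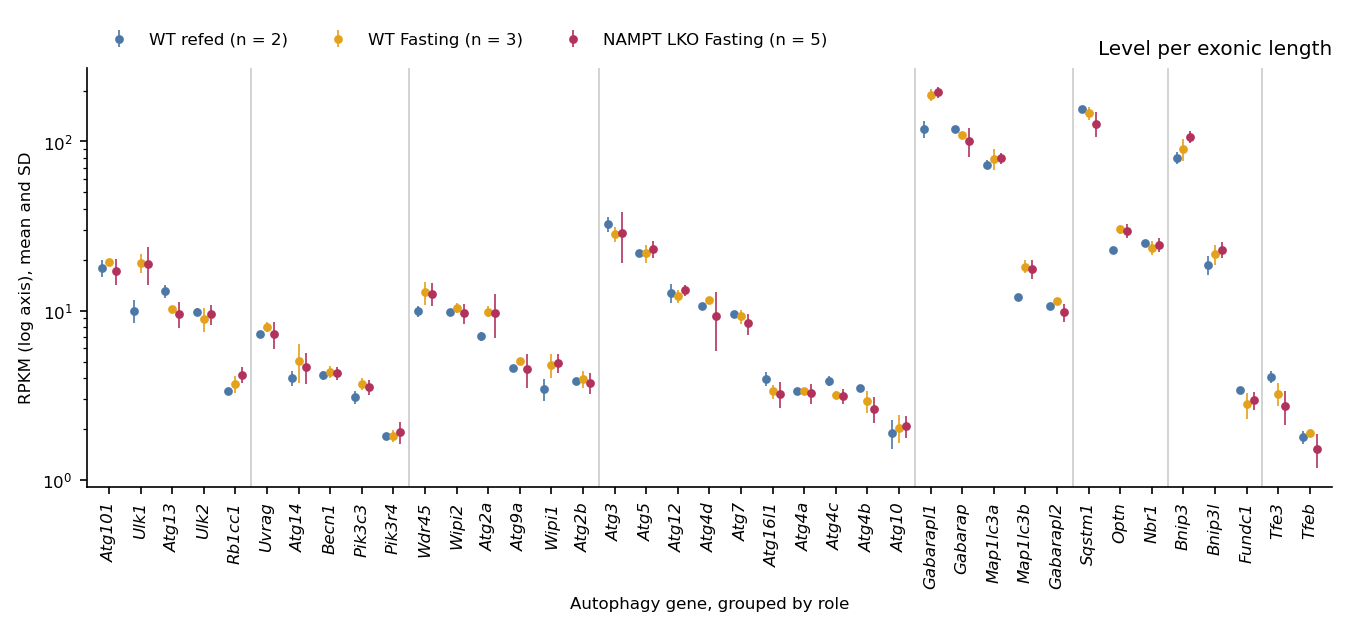
Mean RPKM (log axis) and SD of the 39 autophagy genes in WT refed (n = 2), WT Fasting (n = 3) and NAMPT LKO Fasting (n = 5) livers, with vertical lines between the roles and genes ordered by level within a role. Gabarapl1, Sqstm1, Gabarap, Bnip3 and Map1lc3a stand above 50 RPKM, and the blue points of Ulk1, Gabarapl1 and Map1lc3b stand below the yellow and red ones.

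The first comparison, WT Fasting vs. WT refed, asks which autophagy genes differ with feeding state when Nampt is intact. At an adjusted p at or under 0.05 (edgeR's quasi-likelihood test), Ulk1, Gabarapl1 and Map1lc3b were higher in WT Fasting livers, and no member was lower. They were higher by 1.99-fold, 1.66-fold and 1.58-fold. These 3 of 39 genes are 7.69%, near the 7.04% of all 13444 genes that were called in this comparison. Calls as higher were 7.69% of the members, all 3, and 2.68% of all genes. Of all called genes 38.1% were higher. At an unadjusted p under 0.05, 6 members (15.4%) passed, against 22.3% of all genes. The median log2 fold change of the 39 members was 0.15, beside 0.04 over all genes tested, and 27 members had positive values and 12 negative ones.

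Ulk1 (ENSMUSG00000029512), on the minus strand of chromosome 5 from 110784488 to 110810097, encodes the kinase that starts autophagosome formation. It was at 56.1 and 45.1 CPM in the 2 WT refed livers and at 101, 90.5 and 111 CPM in the 3 WT Fasting livers. Every fasted liver was above both refed ones, with means of 50.6 ± 7.74 CPM (SD, n = 2) and 101 ± 10.01 CPM (SD, n = 3). The log2 fold change was 0.99 (standard error 0.21, 95% interval 0.52 to 1.46, adjusted p = 0.0193). For its paralog Ulk2 the log2 fold change was -0.07 (edgeR adjusted p = 0.851). The ratio of Ulk1 to Ulk2 RPKM was 0.869 and 1.18 in refed livers and 1.55 to 2.62 in WT Fasting livers.

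Gabarapl1 (ENSMUSG00000030161), on the plus strand of chromosome 6 from 129533200 to 129542331, encodes an ATG8 protein of the GABARAP family. Its values were 218 and 187 CPM in WT refed livers and 322, 330 and 356 CPM in WT Fasting livers, again without overlap. The log2 fold change was 0.73 (standard error 0.15, 95% interval 0.41 to 1.05, adjusted p = 0.0137). Map1lc3b (ENSMUSG00000031812), on the plus strand of chromosome 8 from 121590361 to 121598760, encodes LC3B, the ATG8 protein most used to follow autophagosomes. It was at 90.2 and 84.8 CPM in WT refed livers and at 150, 136 and 129 CPM in WT Fasting livers. The log2 fold change was 0.66 (standard error 0.14, 95% interval 0.35 to 0.97, adjusted p = 0.0180). For Gabarapl1, 1.98% of the exonic bases lie in an exon of an opposite-strand gene and 18.6% of its 50-base words also occur in transcripts of that gene, and for Map1lc3b 9.39% of the words occur in other genes, so some reads could have been left uncounted as ambiguous. Ulk1 shares no exon and no word.

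These calls rest on few refed mice, and leaving out either, which leaves 1, also lowered the number of calls over all genes. Without WT refed mouse 1, and likewise without WT refed mouse 2, none of the 39 genes was called. Gabarapl1 alone was called without WT Fasting mouse 1, and Map1lc3b was not called without WT Fasting mouse 2. In addition, 6 genes were called when NAMPT LKO mouse 5 was left out of the joint fit, the additional ones being Optn, Wdr45 and Atg2a. That fit called 16.7% of all genes. Ulk1 had an adjusted p of 0.0612 when libraries were scaled by total counts alone. With that scaling 25.7% of all called genes were higher in fasted livers, in place of 38.1%. With limma's voomWithQualityWeights, a method that the study's text describes, 9 members were called, of which 7 were higher. That method called 24.8% of all genes in this comparison.

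**Figure D2:**
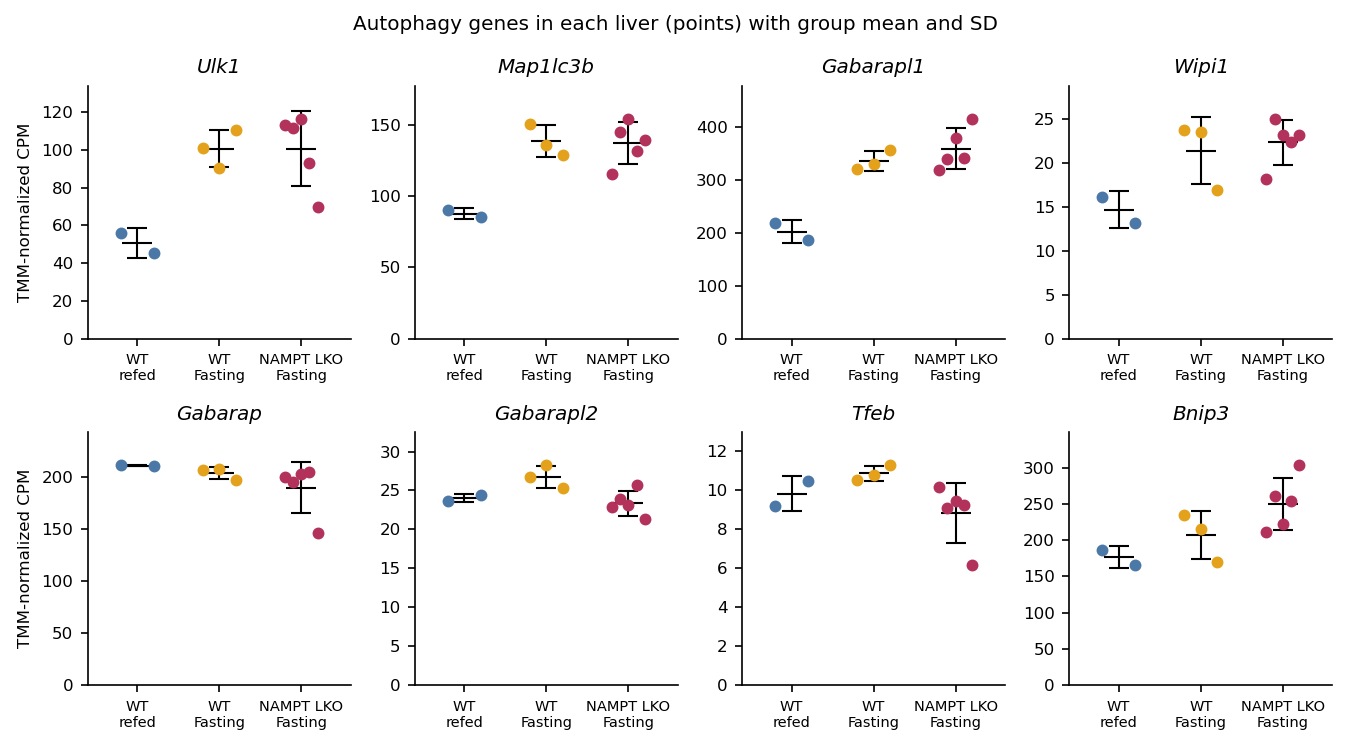
TMM-normalized CPM of 8 autophagy genes in each liver, with 1 point per mouse and black bars for the group mean and SD. For Ulk1, Map1lc3b, Gabarapl1 and, by a narrow margin, Wipi1 both refed points lie below every fasted point of either genotype. For Gabarap both refed points lie narrowly above every fasted point, whereas in Gabarapl2, Tfeb and Bnip3 refed and fasted points overlap.

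Among the 36 members that were not called, groups differed by less. Of the ULK1 complex, Atg13, which encodes the adaptor that links the kinase to its partners, had a log2 fold change of -0.30 (adjusted p = 0.239), and Rb1cc1, which encodes the scaffold FIP200, one of 0.19 (adjusted p = 0.601). All 5 genes of the class III kinase complex had positive values, from 0.07 for Pik3r4 to 0.39 for Atg14, and none had an unadjusted p under 0.05. All 6 genes of the PI3P effector and lipid transfer group were also positive, up to 0.55 for the lipid transfer gene Atg2a (adjusted p = 0.224). The PI3P-binding genes Wipi1 (0.54, adjusted p = 0.110) and Wdr45 (0.42, adjusted p = 0.112) passed only before adjustment. The 10 conjugation genes ranged from -0.23 for the protease gene Atg4c to 0.18 for Atg4d, with a median of 0.00. Of the cargo receptors, Optn had a log2 fold change of 0.47 (adjusted p = 0.128), while Sqstm1 (-0.03) and Nbr1 (-0.05) were close to 0. The mitophagy receptor genes Bnip3 (0.23) and Bnip3l (0.26) and the transcription factor genes Tfeb (0.15) and Tfe3 (-0.28) did not pass before adjustment either. The 2 groups did not overlap for 21 of the 39 genes (16 higher and 5 lower in fasted livers), or 53.8%, against 49.7% of all genes.

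**Figure D3:**
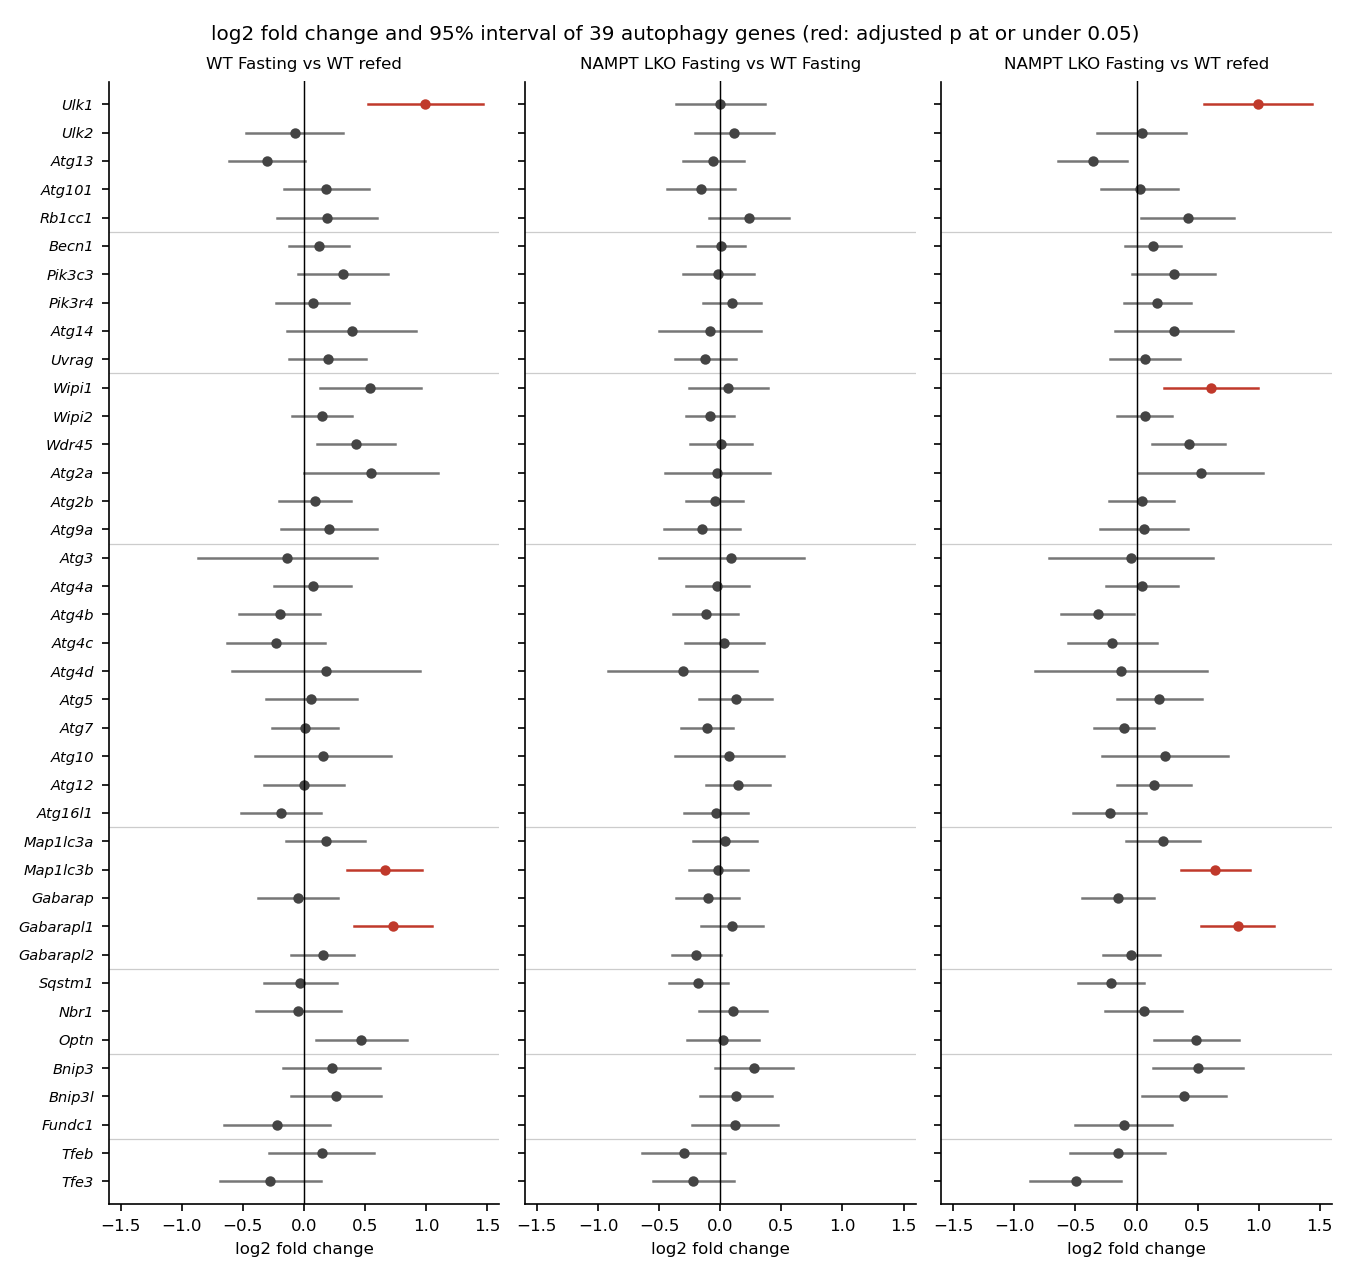
log2 fold change (points) and 95% interval (lines) of the 39 autophagy genes in the 3 comparisons, ordered by role with grey lines between roles. Called genes are in red, namely Ulk1, Map1lc3b and Gabarapl1 on the left, none in the middle, and the same 3 with Wipi1 on the right.

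The second comparison, NAMPT LKO Fasting vs. WT Fasting, asks whether hepatocyte loss of Nampt changed these transcripts in fasted liver. None of the 39 genes was called by edgeR's quasi-likelihood test, and none had an unadjusted p under 0.05, while 0.00744% of all genes were called (Nampt alone) and 6.03% had an unadjusted p under 0.05. DESeq2, edgeR's exact test and voomWithQualityWeights also called none, although 1 member had an unadjusted p under 0.05 by voomWithQualityWeights. The median log2 fold change of the members was -0.02, beside 0.00 over all genes, with 19 positive and 20 negative values. The groups did not overlap for 2 members, Sqstm1 and Tfeb, both lower in NAMPT LKO livers. This is 5.13%, against 3.99% of all genes.

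The 3 genes that differed with feeding state had close means in the 2 genotypes. Ulk1 was at 113, 112, 116, 93.0 and 69.6 CPM in the 5 NAMPT LKO livers, with a log2 fold change of 0.00 against WT Fasting livers (95% interval -0.36 to 0.36). The lowest of these was mouse 5, without which the log2 fold change was 0.11. Gabarapl1 was at 318, 340, 380, 341 and 415 CPM (log2 fold change 0.10, 95% interval -0.16 to 0.35), and Map1lc3b at 115, 145, 154, 131 and 139 CPM (log2 fold change -0.02, 95% interval -0.26 to 0.22). For all 39 genes the 95% interval lay inside a 2-fold change in either direction, and for 35 of them inside a 1.5-fold change. A true difference anywhere inside a gene's own interval remained possible, and the intervals varied in width among genes.

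The lowest p belonged to Gabarapl2, which encodes the ATG8 protein GATE-16. It was at 26.7, 28.2 and 25.3 CPM in WT Fasting livers and at 22.8, 23.8, 23.1, 25.8 and 21.3 CPM in NAMPT LKO livers, with mouse 4 inside the WT range. The log2 fold change was -0.19 (standard error 0.09, adjusted p = 0.837). Next came Tfeb, which encodes a transcription factor for lysosome and autophagy genes. It was at 10.5, 10.8 and 11.3 CPM in WT Fasting livers and at 10.2, 9.10, 9.47, 9.23 and 6.15 CPM in NAMPT LKO livers, mouse 5 being the lowest. Its log2 fold change was -0.30 (standard error 0.16, adjusted p = 0.837), and without mouse 5 it was -0.20. The third was Bnip3, whose product is a receptor on mitochondria, at 235, 215 and 170 CPM in WT Fasting livers and 212, 260, 223, 254 and 303 CPM in NAMPT LKO livers. Its log2 fold change was 0.28 (standard error 0.14, adjusted p = 0.837) and 0.20 without mouse 5. Of its 50-base words, 62.4% also occur in transcripts of other genes, so some Bnip3 reads could have been left uncounted, which was not tested.

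Sqstm1 was at 486, 477 and 528 CPM in WT Fasting livers and at 474, 437, 465, 457 and 364 CPM in NAMPT LKO livers, a log2 fold change of -0.18 (edgeR adjusted p = 0.837), or -0.12 without mouse 5. All 5 NAMPT LKO livers lay below the lowest WT Fasting liver, by a narrow margin for mouse 1. The p62 protein is itself degraded by autophagy, and its amount was not measured here. An exon of Mrnip on the opposite strand covers 17.3% of the exonic bases of Sqstm1, and the strand setting of the counting is not given in the sources used here. Becn1, which encodes the Beclin 1 subunit, shares 43.9% of its exonic bases with Cntd1 on the opposite strand, and its log2 fold change was 0.01. Atg4d shares 31.2% with Kri1, and Atg9a 32.6% with Ankzf1 on the opposite strand and another gene on its own strand.

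The third comparison, NAMPT LKO Fasting vs. WT refed, shares its refed libraries with the first and its NAMPT LKO libraries with the second, so its values are set beside theirs and no overlap was tested. Here 4 members were called and all were higher in the fasted NAMPT LKO livers, namely Gabarapl1, Ulk1, Map1lc3b and Wipi1. They are 10.3% of the 39 genes, near the 11.2% of all genes that were called. Calls as higher were 10.3% of the members and 4.65% of all genes, and of all called genes 41.4% were higher. Ulk1 had a log2 fold change of 0.99 (95% interval 0.55 to 1.43, adjusted p = 0.0110), as it did in WT livers, and 1.10 without NAMPT LKO mouse 5. Gabarapl1 reached 0.83 (95% interval 0.53 to 1.13, adjusted p = 0.00400) and Map1lc3b 0.65 (95% interval 0.36 to 0.93, adjusted p = 0.0107).

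Wipi1 (ENSMUSG00000041895), on the minus strand of chromosome 11 from 109573331 to 109611967, encodes a PI3P-binding protein of the forming membrane. It was at 16.2 and 13.2 CPM in WT refed livers and at 18.2, 25.0, 23.2, 22.4 and 23.1 CPM in NAMPT LKO livers. Mouse 1 was the lowest of these and still above both refed livers. The log2 fold change was 0.61 (standard error 0.17, adjusted p = 0.0461), beside 0.54 (adjusted p = 0.110) in WT livers, where WT Fasting mouse 3 was at 17.0 CPM and the other 2 at 23.7 and 23.5 CPM. The call was lost under 10 of 19 alternatives, which include leaving out either WT refed mouse, WT Fasting mouse 1 or 2, or NAMPT LKO mouse 2, 3 or 4. Both differences are taken from the same WT refed livers, so the gap between them is the second comparison, of fasted livers alone. There the log2 fold change of Wipi1 was 0.07 (95% interval -0.26 to 0.39). Without a refed NAMPT LKO group, whether feeding state moved Wipi1 alike in the 2 genotypes was not tested.

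At an unadjusted p under 0.05, 13 members (33.3%) passed in this comparison, against 26.1% of all genes. The 9 that failed the adjustment were Optn (0.49), Atg2a (0.52), Bnip3 (0.50), Wdr45 (0.43), Rb1cc1 (0.42) and Bnip3l (0.39) with positive log2 fold changes, and Tfe3 (-0.50), Atg13 (-0.36) and Atg4b (-0.32) with negative ones. The groups did not overlap for 15 members (38.5%), against 33.5% of all genes. The number called was 0 without WT refed mouse 2, 1 (Gabarapl1) without WT refed mouse 1 and 9 without NAMPT LKO mouse 5, and the last set added Optn, Wdr45 and Atg2a as higher and Atg13 and Tfe3 as lower. Over all genes, 21.2% were called without NAMPT LKO mouse 5, and without either WT refed mouse fewer were called than in the full fit. With library totals in place of TMM, 26.1% of all called genes were higher, in place of 41.4%.

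The 5 ATG8 genes divided the family's transcripts unevenly. Gabarapl1 made up 37.0% and 34.1% of the summed ATG8 RPKM in WT refed livers, 44.4%, 44.4% and 50.2% in WT Fasting livers and 45.2%, 47.5%, 50.0%, 46.0% and 54.8% in NAMPT LKO livers. Every fasted liver was above both refed ones. Gabarap, its closest relative in the list, took 34.3% and 36.9% in refed livers, 26.7% to 27.4% in WT Fasting livers and 18.5% to 27.2% in NAMPT LKO livers, the lowest being mouse 5. The ratio of Gabarapl1 to Gabarap RPKM was 1.08 and 0.924 in refed livers, 1.62, 1.66 and 1.88 in WT Fasting livers and 1.66 to 2.97 in NAMPT LKO livers, of which 2.97 was again mouse 5 and the next was 1.96. Gabarap counts themselves had a log2 fold change of -0.05 in WT Fasting vs. WT refed livers (edgeR adjusted p = 0.883). Map1lc3a stood above Map1lc3b in every liver per exonic length, and the ratio of Map1lc3b to Map1lc3a RPKM was 0.163 and 0.166 in refed livers and 0.180 to 0.274 in the 8 fasted ones. The summed RPKM of the family was 345 and 319 in refed livers, 400 to 411 in WT Fasting livers and 360 to 438 in NAMPT LKO livers. Within every group these are values of the same libraries as the tests above, and they add no separate evidence.

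**Figure D4:**
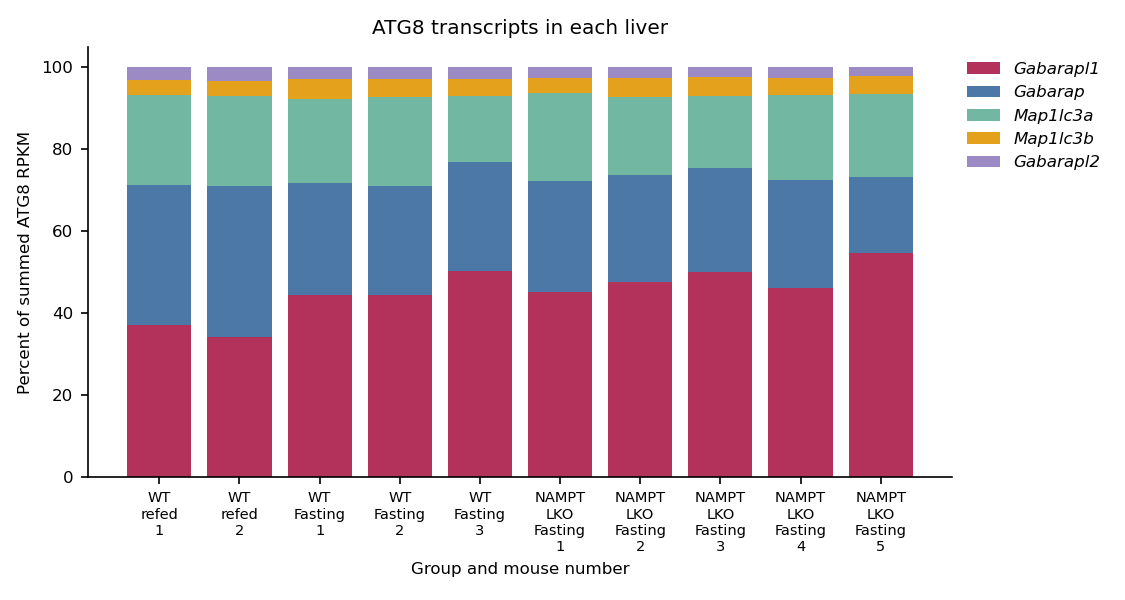
Share of the summed RPKM of the 5 ATG8 genes that each gene took, with 1 bar per liver. The share of Gabarapl1 was 34.1% to 37.0% in the 2 WT refed livers and 44.4% to 54.8% in the 8 fasted livers.

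NAMPT LKO mouse 5 stood apart in many of these genes. For 9 of the 39 it differed by more than 0.5 on the log2 scale from the median of NAMPT LKO mice 1 to 4, whereas at most 1 gene did so in each of the other 4 mice when compared in the same way. Atg3 was at 172 CPM in mouse 5 and at 70.3 to 86.9 CPM in mice 1 to 4. Atg4d was at 9.87 CPM against 24.8 to 32.2 CPM, and Atg2a stood at 0.517 times the median of mice 1 to 4, which ranged from 80.8 to 88.1 CPM. The difference of mouse 5 ran against the GC content of the longest transcript, with a Pearson correlation of -0.64 and a Spearman correlation of -0.69 over the 39 genes, which share this 1 library. Over all genes tested the Spearman correlation was -0.55, and in the other 4 mice it lay between -0.05 and 0.27. Map1lc3a, at 63.1% GC, and Gabarapl1, at 52.7% GC, were not lower in mouse 5 and so lay off this pattern. Without mouse 5 the log2 fold change of Atg3 in NAMPT LKO vs. WT Fasting livers changed from 0.09 to -0.23 (edgeR unadjusted p = 0.0519). The small values of Atg13, Becn1, Atg2a, Atg4c, Atg10, Atg16l1 and Optn in that comparison also changed sign, none of them called with or without the mouse. Of these, Atg2a went from -0.02 to 0.12. The log2 fold change of Atg4d there was -0.31 with mouse 5, the lowest of the 39, and -0.11 without it. With the GC trend of each library removed, 4 members were called in WT Fasting vs. WT refed and 10 in NAMPT LKO Fasting vs. WT refed livers. Of all genes, 11% and 15.8% were called with this setting. The part of GC content in the difference between genotypes was not tested further.

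**Figure D5:**
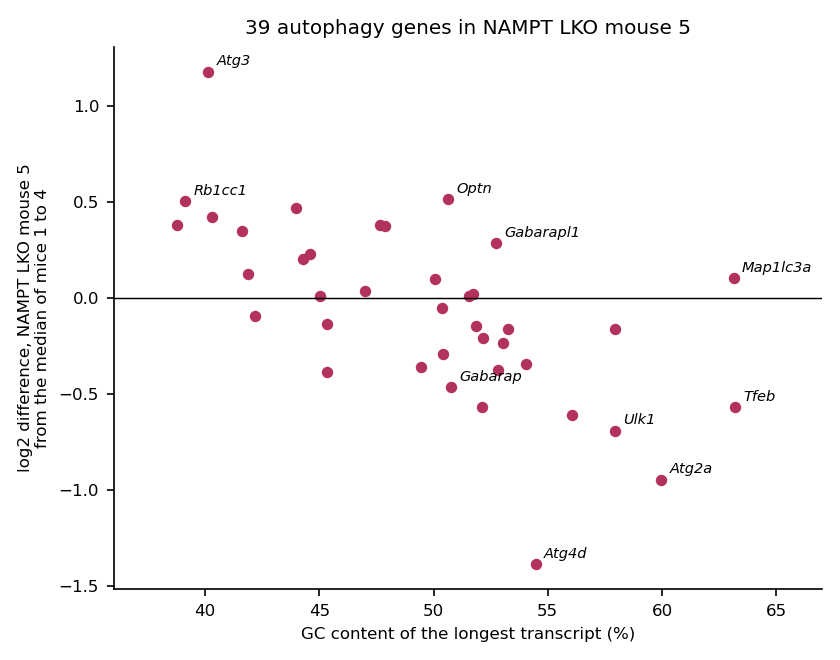
log2 difference of NAMPT LKO mouse 5 from the median of NAMPT LKO mice 1 to 4 against transcript GC content (%), with 1 point for each of the 39 autophagy genes and some of them named. Points fall from Atg3 at the upper left to Atg4d and Atg2a at the lower right (Spearman correlation -0.69).

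Other genes of the pathway were counted by 4 lists that hold none of the 39. Of the 30 further autophagy genes tested, 4 were called in WT Fasting vs. WT refed livers (13.3%, against 7.04% of all genes). The FOXO-responsive gene Depp1 had a log2 fold change of 3.01 (edgeR adjusted p = 0.000710). It was at 6.61 and 3.76 CPM in WT refed livers and at 50.9, 37.6 and 36.6 CPM in WT Fasting livers. Trp53inp1, whose product binds ATG8 proteins, was higher by 2.20 (edgeR adjusted p = 0.00376). Calcoco1, a receptor gene for reticulum and Golgi membranes, was higher by 1.36 (edgeR adjusted p = 0.000872). Tmem41b, a lipid scramblase gene of the reticulum, was lower by 0.95 (edgeR adjusted p = 0.00954). All 4 were also called in NAMPT LKO Fasting vs. WT refed livers, with log2 fold changes of 3.44, 1.78, 1.49 and -0.99, and there Ambra1, which encodes a regulator of Beclin 1, was called too (-0.55, adjusted p = 0.0177), which makes 16.7% of the list against 11.2% of all genes. Without WT refed mouse 2 the counts were 2 and 3, and without NAMPT LKO mouse 5 they were 7 and 8. With that mouse left out, 16.7% and 21.2% of all genes were called. The median log2 fold change of the list in WT Fasting vs. WT refed livers was 0.10. The largest difference among these called genes exceeded that of any of the 39 members.

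None of the 16 fusion genes, which tether and join autophagosomes to lysosomes, was called in any comparison by edgeR's quasi-likelihood test on all 10 libraries. At an unadjusted p under 0.05 were 12.5%, 6.25% and 6.25% of them in the 3 comparisons, in the order above, against 22.3%, 6.03% and 26.1% of all genes. Without NAMPT LKO mouse 5, 2 were called in WT Fasting vs. WT refed and 1 in NAMPT LKO Fasting vs. WT refed livers. That fit called 16.7% and 21.2% of all genes. A fit of only the groups compared called 2 in the first, beside 12.6% of all genes. The lowest p between genotypes was that of Vps41 (log2 fold change 0.36, unadjusted p = 0.00657, adjusted p = 0.761). Of 57 lysosome genes, 1 was called in WT Fasting vs. WT refed livers (1.75%, against 7.04% of all genes). The same gene was the only 1 called in NAMPT LKO Fasting vs. WT refed livers (1.75%, against 11.2% of all genes). This was Npc1, which encodes the cholesterol exporter of the lysosome, with a log2 fold change of 1.10 (adjusted p = 0.00454) in WT and 1.11 (adjusted p = 0.00224) in NAMPT LKO Fasting vs. WT refed livers. These counts depended on the libraries and the tool, at 0 and 0 without WT refed mouse 2, 9 and 13 without NAMPT LKO mouse 5, and 14 and 24 with voomWithQualityWeights. Of all genes, 16.7% and 21.2% were called without NAMPT LKO mouse 5, and 24.8% and 31.8% with voomWithQualityWeights. In WT Fasting vs. WT refed livers 45 of the 57 had positive values, as had 7209 of the 13444 genes tested. There the median log2 fold change of the 57 was 0.20, beside 0.04 over all genes. The 57 lysosome genes had a median of 0.00 between genotypes.

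Of 47 nutrient sensing genes tested, 4 were called in WT Fasting vs. WT refed livers (8.51%, near the 7.04% of all genes). None was called without WT refed mouse 1 or without WT refed mouse 2, 2 were called without WT Fasting mouse 1 and 9 without NAMPT LKO mouse 5. Genes for 3 inhibitors or modulators of MTORC1 signalling were higher in WT Fasting livers. Their log2 fold changes were 2.54 for Ddit4 (edgeR adjusted p = 0.00674), 1.77 for Sesn2 (adjusted p = 0.0225) and 1.37 for Flcn (adjusted p = 0.0141). Tbc1d7, a subunit gene of the TSC complex, was lower, at -0.74 (edgeR adjusted p = 0.0170). In NAMPT LKO Fasting vs. WT refed livers these were 1.44, 1.59, 0.94 and -0.65 and again called, with Mlst8 (-1.43), Tsc1 (0.45) and Fnip1 (0.58) in addition, 14.9% of the list against 11.2% of all genes. These 7 calls became 1 without WT refed mouse 1, 0 without WT refed mouse 2, 4 without WT Fasting mouse 1 or 2, 3 without NAMPT LKO mouse 2 or 3 and 12 without NAMPT LKO mouse 5. Ddit4, an MTORC1 inhibitor, was at 4.50 and 3.00 CPM in WT refed livers, 23.2, 23.5 and 18.7 CPM in WT Fasting livers and 6.00, 11.3, 9.16, 6.79 and 17.6 CPM in NAMPT LKO livers. The 5 NAMPT LKO livers lay below the 3 WT Fasting livers, although the difference between genotypes (-1.10) failed the adjustment (adjusted p = 0.761). Mlst8, an MTOR subunit gene, was at 3.04 to 3.60 CPM in WT Fasting livers and at 1.63 to 2.30 CPM in NAMPT LKO livers, also without overlap (log2 fold change -0.73, adjusted p = 0.761). Between genotypes the groups did not overlap for 4 of the 47 genes (3 lower and 1 higher in NAMPT LKO livers), or 8.51%, against 3.99% of all genes. No gene of the 4 lists was called between the genotypes. With NAMPT LKO mouse 5 left out, 16.7% and 21.2% of all genes were called in the 2 comparisons with WT refed livers.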

How the data were processed

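Liver RNA-seq counts of 10 mice were analysed. The authors selected polyadenylated RNA, sequenced single reads of 50 bases, aligned them to GRCm38 with STAR and assigned the unambiguous, uniquely mapped ones to Ensembl genes by featureCounts, and deposited these counts without normalization. The submitters' processing notes give STAR 2.5.1a and featureCounts 1.4.6-p5, and the study's methods give other versions. The deposited CPM values scale counts by the library total, and the deposited RPKM values divide those by exonic length in kilobases. Strand handling is not given in the sources used here. Gene positions and lengths are those of the files, and 40254 of 41388 genes were given symbols from the GENCODE annotation of GRCm38.

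Here, a gene entered the tests when any library held more than 1 CPM of it and it was no rRNA gene, counts were TMM-normalized, and all 10 libraries were fitted together with the legacy quasi-likelihood test of edgeR 4.0.16 in R 4.3.3. P-values were adjusted by Benjamini-Hochberg over 13444 genes, and genes at or under 0.05 were called. Standard errors came from the same test, and 95% intervals from its t distribution. Alternatives were limma 3.58.1, DESeq2 1.42.0, edgeR's exact test, other scalings, filters and thresholds, only the groups compared, removal of each library's GC trend (loess span 0.5), a block on replicate numbers and omission of each library. The fit was tested on simulated data. With 2 WT refed and 3 WT Fasting mice, true changes can be missed, so a gene that was not called is not shown to be unchanged.

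Members and gene lists were chosen with earlier results of these data known. Values in every library are given for members called in any comparison and for the 3 with the lowest p between genotypes, and of the other lists only called genes or the gene with the lowest p. Mlst8 and Ddit4 in NAMPT LKO vs. WT Fasting and Sqstm1 were described in full after their values were seen. Ccpg1 and Rragb did not pass the filter. Samples were grouped by their labels, which name separate mice in each group. No libraries agreed within sampling noise. Same-numbered WT Fasting and NAMPT LKO mice are different animals and their deviations correlated at 0.078 to 0.104, so numbers were not taken as pairs. Shared words are 50-base stretches of a gene's transcripts that also occur in transcripts of another gene. Promoters come from RefSeq (GRCm38.p6).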

Additional observations from a re-analysis of the deposited data

Results flagged for a closer look

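Within the 5 NAMPT LKO Fasting livers, 8 of the 39 autophagy genes had 1 library far from the others, by the gap to the nearest library divided by the whole range (limit 0.71). Chance flags about 1 gene in 20. In 7 of the 8 the library was NAMPT LKO mouse 5. Atg3 (gap 0.838) and Optn (gap 0.795) were high there, with Optn at 154 CPM against 101 to 112 CPM in mice 1 to 4. Atg2a (gap 0.839), Gabarap (gap 0.838), Atg9a (gap 0.793), Tfe3 (gap 0.733) and Tfeb (gap 0.732) were low there. Gabarap was at 146 CPM against 196 to 205 CPM, Atg9a at 18.5 CPM against 27.4 to 29.8 CPM, and Tfe3 at 18.2 CPM against 26.9 CPM in the next lowest mouse. The 5 low genes had 50.8% to 63.2% GC and the 2 high ones 40.1% and 50.7%. The eighth was Becn1 (gap 0.819), which was low in NAMPT LKO mouse 1, at 27.8 CPM against 31.5 to 32.4 CPM.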

How the results depend on the processing

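The 3 members called in WT Fasting vs. WT refed livers numbered 9 with voomWithQualityWeights, 5 in a fit of only the groups compared, 6 at an unadjusted p under 0.05, 0 when a 2-fold change was also required, and 0 to 6 when each library was left out (0 without either WT refed mouse, 1 without WT Fasting mouse 1, 6 without NAMPT LKO mouse 5). The 4 called in NAMPT LKO Fasting vs. WT refed livers numbered 14 with voomWithQualityWeights, 7 with DESeq2, 10 with the GC trend removed, 13 at an unadjusted p, 0 with the fold limit and 0 to 9 with each library left out (0 without WT refed mouse 2, 1 without WT refed mouse 1, 9 without NAMPT LKO mouse 5). Both counts kept within 1.5 times under the other settings, the cause of the differences was not tested, and no member was called between genotypes under any setting, leaving out each library included. In WT Fasting vs. WT refed, the share of all genes called was 24.8% with voomWithQualityWeights and 12.6% with only the groups compared. Without NAMPT LKO mouse 5 it was 16.7%. In NAMPT LKO Fasting vs. WT refed, the shares were 31.8% with voomWithQualityWeights and 16.7% with DESeq2. They were 15.8% with the GC trend removed and 21.2% without NAMPT LKO mouse 5. The replicate block on libraries 1 to 3 called 0 members, as did the fit of these libraries without it. Ulk1, Map1lc3b and Gabarapl1 in both comparisons with WT refed livers, Wipi1 in NAMPT LKO Fasting vs. WT refed, and Gabarapl2, Tfeb and Bnip3 between genotypes kept their direction under every alternative run for them. Other members were followed only without NAMPT LKO mouse 5. There Atg3, Atg13, Becn1, Atg2a, Atg4c, Atg10, Atg16l1 and Optn changed sign between genotypes. In NAMPT LKO Fasting vs. WT refed, the call of Wipi1 was lost under 10 of 19 alternatives. The 95% intervals of 19 of 39 members in WT Fasting vs. WT refed and of 35 of 39 between genotypes lay inside a 1.5-fold change, which is the precision that these group sizes gave.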
